A study of Mus musculus with 7 samples.

Results

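Genes of the circadian clock were examined in the small intestine of mice fed a normal or a low cystine diet. The 10 genes are Arntl, Npas2, Per1, Per2, Per3, Cry1, Nr1d1, Nr1d2, Dbp and Tef, taken by symbol from the 38293 genes listed in the count table. All 10 were among the 14869 genes that passed the filter on low counts.

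The study asked how dietary cystine restriction affects the mouse intestine, and mRNA of ileal scrapings was sequenced from 4 mice on the normal cystine diet (normal cys) and 3 mice on the low cystine diet (low cys). The mucosa was scraped off the underlying muscle, so the samples mix epithelial cells with the connective tissue and immune cells that support them. All animals were male C57BL/6NRJ mice, given as 8 weeks old and housed individually under a regular light–dark cycle. All received the high-fat, low-calcium AIN93G diet for 2 weeks after 1 week of acclimatization. In the low cys group the added L-cystine was replaced by alanine during those 2 weeks. Food was withheld for 4 h before sacrifice, and the time of day at which each mouse was killed is not given in the sources used here. The normal cys libraries are X17SI4, X32SI4, SI9 and X1SI4, and the low cys libraries are X23SI4, X26SI4 and X10SI4. They held between 14888760 and 22412703 counts, and no pair of libraries was a duplicate. Levels are given as CPM, the count of a gene relative to the total of its library, with the totals scaled by the TMM method.

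The clock is a feedback loop of transcription that runs in almost every mammalian cell. ARNTL (also called BMAL1) pairs with CLOCK or NPAS2 and activates the Per, Cry, Nr1d, Dbp and Tef genes through E-boxes, and PER and CRY proteins then repress that activation. NR1D1 and NR1D2 (REV-ERB alpha and beta) repress Arntl, Npas2 and Cry1 through ROR elements, while DBP and TEF drive output genes through D-boxes. In mouse peripheral tissues Nr1d1, Dbp, Nr1d2, Tef and Per3 peak during the light phase, Per1 and Per2 around the start of the night, Cry1 later in the night and Arntl and Npas2 around dawn. In the gut the rhythm is set largely by the time of feeding, and digestion, transport and cell division follow it.

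The matches to these elements in the members' promoters are shown because the loop acts through elements of these kinds. Promoters of 300 bases (250 before and 50 after the start) were taken from RefSeq, build GRCm38.p6, in which 9 of the 10 members had 12 promoters and Per2 was not matched. Each stretch is 30 bases on the strand of the gene, 5′ to 3′, with the match in capitals.
Arntl, ROR element, chr7:113207530-113207559, plus strand: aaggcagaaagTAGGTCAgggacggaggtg
Cry1, E-box, chr10:85185097-85185126, minus strand: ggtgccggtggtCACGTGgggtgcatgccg
Per1, E-box, chr11:69098771-69098800, plus strand: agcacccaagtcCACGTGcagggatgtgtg
Tef, E-box, chr15:81802534-81802563, plus strand: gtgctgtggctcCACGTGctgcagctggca
Tef, E-box, chr15:81811264-81811293, plus strand: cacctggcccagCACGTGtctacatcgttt
Per3, D-box, chr4:151044805-151044834, minus strand: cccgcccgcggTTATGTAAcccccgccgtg
Per3, D-box, chr4:151044852-151044881, minus strand: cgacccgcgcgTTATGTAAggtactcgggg
The E-box CACGTG was found in 4 of the 12 member promoters and in 7.15% of all 32851 promoters. The D-box, searched as TTATGTAA or TTACGTAA, was found in 1 member promoter, that of Per3, which holds it at both places shown, and in 1.06% of all. The core of the ROR element, TAGGTCA, was found in 1 member promoter, that of Arntl, and in 2.61% of all. Both strands were searched, and the motifs do not overlap one another in these promoters. The promoters of Npas2, Dbp, Nr1d1 and Nr1d2 held none of these letters in the window searched. A match is a description of the sequence and not evidence of binding.

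The clock genes varied between mice on the same diet, and for most of them 1 library, the normal cys library X17SI4, made up much of that spread. The standard deviation of log2 CPM within diets had a median of 0.77 over the 10 genes, against 0.29 over all genes tested. Dbp had a larger spread than 99.8% of the genes tested, Per3 than 98.7%, Per1 than 94.8% and Tef than 94.0%. At the other end, Npas2 exceeded 56.3% of genes and Per2 exceeded 73.2%. Without X17SI4 the median was 0.38 over the 10 genes, against 0.27 over all genes, and 8 of 10 members were above the latter. Dbp and Per1 then each had a larger spread than 97.3% of genes, but Per3 only than 62.9%, Tef than 63.9%, Cry1 than 40.4% and Per2 than 33.8%. The highest normal cys library was above the lowest by more than 2-fold in 9 of 10 members with X17SI4, and in 2 of 10, Dbp and Per1, without it. Per3 went from 10.35-fold to 1.43-fold and Tef from 4.46-fold to 1.17-fold. Within low cys 4 of 10 members (Dbp, Per1, Nr1d1 and Nr1d2) exceeded 2-fold. The share of all genes tested above 2-fold was not computed.

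The widest differences were in Dbp, a transcription factor that acts on D-boxes and is one of the most rhythmic transcripts of peripheral tissues (ENSMUSG00000059824, chr7:45705088-45710155, plus strand). Dbp stood at 1.72, 36.2, 48.9 and 17.9 CPM in the normal cys libraries X17SI4, X32SI4, SI9 and X1SI4, and at 3.26, 16.6 and 10.2 CPM in the low cys libraries X23SI4, X26SI4 and X10SI4. The highest normal cys library was thus 28.4-fold above the lowest, from 33 to 931 counts (2.73-fold without X17SI4), and the low cys libraries lay inside that range. Of the exon bases of Dbp, 16.7% are shared with Sphk2 on the opposite strand. Since the strand setting of the counting is not given, reads there cannot be assigned with certainty. Sphk2 had 1178 counts in X17SI4, the library in which Dbp had 33. This was the lowest count of Sphk2, against 1255 to 2120 in the other libraries.

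The other genes of the light phase followed the same order of libraries at the low end. Nr1d1, the repressor of Arntl (ENSMUSG00000020889, chr11:98767932-98775333, minus strand), had 43.7, 127.0, 190.2 and 99.1 CPM on normal cys and 44.0, 94.9 and 69.3 CPM on low cys, with the libraries in the order given above. X17SI4 and X23SI4, of different diets, were nearly equal and lowest. Nr1d1 shares 8.55% of its exon bases with Thra on the opposite strand. Its paralogue Nr1d2 (ENSMUSG00000021775, chr14:18204054-18239127, minus strand) had 23.6, 57.3, 80.3 and 95.9 CPM on normal cys and 37.1, 76.9 and 53.4 CPM on low cys. Again X17SI4 was lowest and X23SI4 next, but here X1SI4 rather than SI9 was highest.

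Tef, which binds the same D-boxes as DBP (ENSMUSG00000022389, chr15:81802421-81826861, plus strand), had 23.3, 92.9, 89.1 and 103.8 CPM on normal cys and 35.6, 69.1 and 47.0 CPM on low cys. X32SI4, SI9 and X1SI4 lay close together and above every low cys library, and X17SI4 lay below them all. Per3, a period gene that is not required for the rhythm itself (ENSMUSG00000028957, chr4:151003652-151044665, minus strand), showed the same arrangement. It stood at 2.77, 20.03, 28.6 and 25.4 CPM on normal cys and at 7.26, 12.8 and 9.41 CPM on low cys. In all 5 light-phase genes X17SI4 was the lowest, X23SI4 the second lowest and X10SI4 the third lowest of the 7 libraries.

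The genes around dawn were highest where the light-phase genes were lowest. Arntl, the activator without which the clock stops (ENSMUSG00000055116, chr7:113207465-113314122, plus strand), had 40.6, 15.5, 14.8 and 28.6 CPM on normal cys and 36.1, 26.9 and 30.2 CPM on low cys. X17SI4 and X23SI4 were highest, and SI9 and X32SI4, the highest libraries for Nr1d1 and Dbp, were lowest. Npas2, which can take the place of CLOCK (ENSMUSG00000026077, chr1:39193731-39363234, plus strand), had 56.3, 30.1, 43.9 and 50.4 CPM on normal cys and 40.2, 34.7 and 42.9 CPM on low cys. X17SI4 was highest here too, but the other libraries were not in the order of Arntl.

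Cry1, a repressor of ARNTL and CLOCK (ENSMUSG00000020038, chr10:85131702-85185054, minus strand), had 27.9, 10.6, 12.9 and 15.96 CPM on normal cys and 17.8, 17.6 and 15.02 CPM on low cys. As for Arntl, X17SI4 was highest and X32SI4 and SI9 were lowest. Per2, a repressor that the rhythm needs (ENSMUSG00000055866, chr1:91415984-91459330, minus strand), had 18.3, 35.6, 37.3 and 41.8 CPM on normal cys and 36.8, 27.2 and 26.6 CPM on low cys. X17SI4 was the lowest, but X23SI4 was among the higher libraries, unlike in the light-phase genes. Per1, which also responds directly to glucocorticoids and other acute signals (ENSMUSG00000020893, chr11:69095217-69109960, plus strand), had 13.7, 30.5, 9.73 and 9.94 CPM on normal cys and 29.1, 7.06 and 11.9 CPM on low cys. One library of each diet, X32SI4 and X23SI4, stood above the rest. X17SI4, the lowest or the highest library in every other member, was at neither end here.

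**Figure D1:**
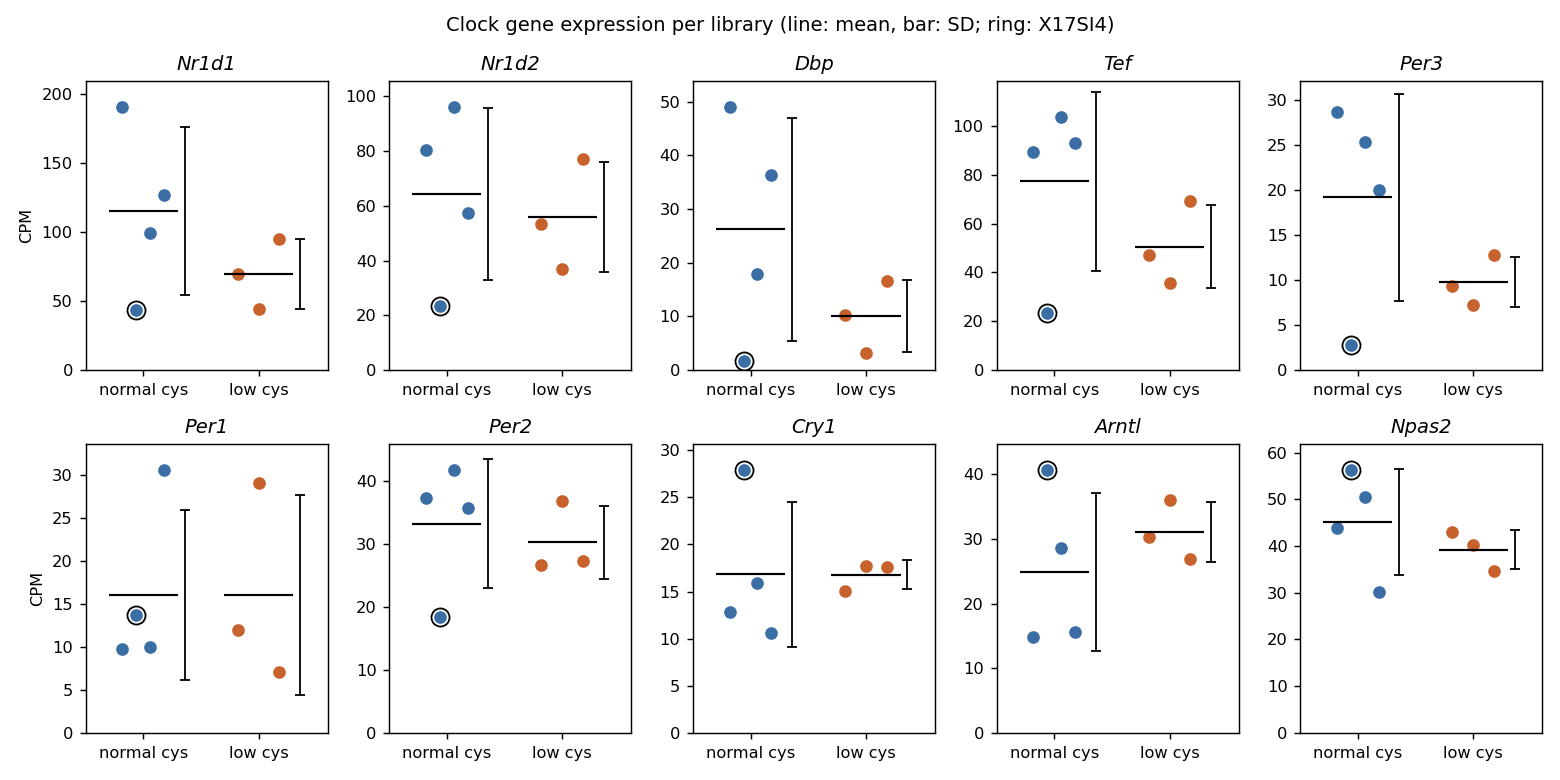
Expression of the 10 clock genes in CPM (vertical axes, linear, from 0) in each normal cys (blue, 4) and low cys (orange, 3) library, with the mean as a line and the SD as a bar. The ringed library X17SI4 is lowest in Nr1d1, Nr1d2, Dbp, Tef, Per3 and Per2 and highest in Cry1, Arntl and Npas2, and the groups overlap in every gene.

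**Figure D2:**
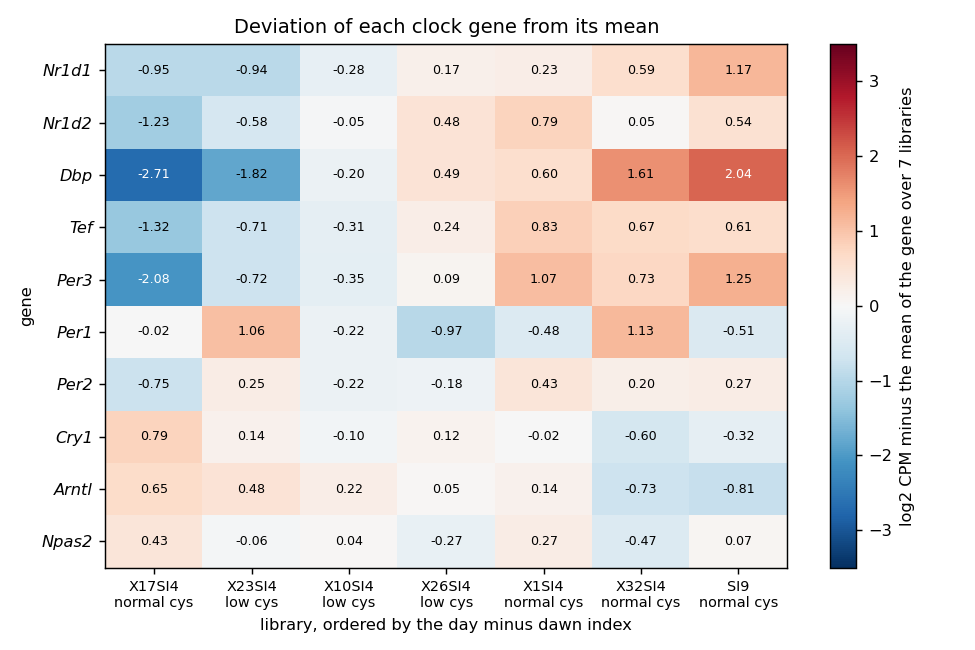
Log2 CPM of each clock gene (rows) in each library (columns) minus the mean of that gene over the 7 libraries, in numbers and colour, with libraries ordered by the index of light-phase against dawn genes. From left to right Dbp goes from -2.71 to 2.04 and Arntl from 0.65 to -0.81, and the normal cys library X17SI4 stands at the left end, before the 3 low cys libraries and the other 3 normal cys libraries.

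Levels can be set side by side between genes when CPM is divided by exon length in kilobases. On normal cys Nr1d1 was highest at 37.4 ± 19.8 CPM per kilobase (SD, n = 4), followed by Nr1d2 at 12.8 ± 6.28, Tef at 9.82 ± 4.64, Npas2 at 9.43 ± 2.35, Dbp at 8.90 ± 7.03 and Arntl at 8.57 ± 4.23 CPM per kilobase. Per2 at 5.70 ± 1.76, Cry1 at 5.58 ± 2.56, Per1 at 2.84 ± 1.75 and Per3 at 2.0 ± 1.2 CPM per kilobase came last. The means of neighbours in this order differed by less than the sum of their SDs. On low cys Nr1d1 was again highest at 22.6 ± 8.28 CPM per kilobase (SD, n = 3) and Per3 lowest at 1.02 ± 0.291, with Arntl, at 10.7 ± 1.604, in the third place and Dbp, at 3.41 ± 2.27, in the eighth.

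The relation between members across libraries was measured as Pearson's r and Spearman's rho of log2 CPM over the 7 libraries (prior count 2), for the 45 pairs, with exact permutation p-values adjusted by the Benjamini-Hochberg method over the pairs. The pairs share the same libraries and are not independent of each other. The members were known clock genes chosen with earlier results of these data in view. Of the 45 pairs, 19 correlated positively and 26 negatively, and 12 had an adjusted p under 0.05 by Pearson's r and 5 by Spearman's rho. No such count was made for pairs of other genes, so these numbers are not read as particular to the clock. Among 10309 tested genes with a mean of at least 5 CPM, r with Nr1d1 exceeded 0.9 for 209.

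The 5 light-phase genes varied together. All 10 pairs among them correlated positively, with r from 0.80 to 0.98 and a median of 0.93, and 8 of these pairs had an adjusted p under 0.05 by Pearson's r and 3 by Spearman's rho. Without X17SI4, r of all 10 was 0.70 to 0.98, but none of the 45 pairs of members had an adjusted p under 0.05 by Pearson's r. The count over the 45 pairs was also 0 without X10SI4 and 2 without SI9, each with 6 libraries left. Without the 2 libraries farthest from the median of the first gene of each pair, r was 0.34 to 0.99. Nr1d1 and Dbp ranked the 7 libraries identically. Their r was 0.97 (exact permutation p = 0.0001984, adjusted p = 0.00893) and their rho 1.0 (exact permutation p = 0.0003968, adjusted p = 0.0179), and without X17SI4 and X23SI4 r was 0.97. For Per3 and Tef r was 0.98 (exact permutation p = 0.0007937, adjusted p = 0.0179) and rho 0.89 (exact permutation p = 0.0123, adjusted p = 0.0615), and without X17SI4 and SI9 r was 0.99. The adjusted p of Per3 and Tef thus passed 0.05 by Pearson's r alone.

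Arntl varied against its repressor. For Arntl and Nr1d1 r was -0.93 (exact permutation p = 0.003373, adjusted p = 0.0253) and rho -0.96 (exact permutation p = 0.002778, adjusted p = 0.025), and without X32SI4 and SI9 r was -0.95. For Arntl and Dbp r was -0.92 (exact permutation p = 0.007143, adjusted p = 0.0300) and rho -0.96 (exact permutation p = 0.002778, adjusted p = 0.025), and without X32SI4 and SI9 r was -0.99. Both relations therefore kept their sign and size without the libraries at one end. With the mean of each diet removed from every gene, r was -0.92 for Arntl with Nr1d1 and -0.92 for Arntl with Dbp.

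For Npas2 such a relation did not pass the test. All 10 pairs of a light-phase gene with Arntl or Npas2 were negative, from -0.93 to -0.30, but the only 2 with an adjusted p under 0.05 were those of Arntl with Nr1d1 and with Dbp. For Npas2 against the light-phase genes r lay between -0.52 and -0.30 and turned positive in all 5 pairs when X17SI4 and X32SI4 were left out, so these negative values rest on those libraries. Arntl and Npas2 correlated at r = 0.55 (exact permutation p = 0.1958, adjusted p = 0.315) and rho = 0.43 (exact permutation p = 0.3536, adjusted p = 0.513), and at r = 0.58 without X32SI4 and SI9.

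Cry1 went with Arntl. Their r was 0.86 (exact permutation p = 0.006746, adjusted p = 0.0300) and their rho 0.82 (exact permutation p = 0.03413, adjusted p = 0.0960), and r was 0.78 without X32SI4 and SI9. For Cry1 and Dbp r was -0.87 (exact permutation p = 0.007341, adjusted p = 0.0300) and rho -0.86 (exact permutation p = 0.02381, adjusted p = 0.0824), and r was -0.75 without X17SI4 and X32SI4. Of the 24 pairs that hold Per1, Per2 or Cry1, these were the only 2 with an adjusted p under 0.05 by Pearson's r, and none passed by Spearman's rho. Per1 had r between -0.48 and 0.20 with the other members. Per2 correlated with Per3 at r = 0.83 (exact permutation p = 0.02183, adjusted p = 0.0667) and rho = 0.75 (exact permutation p = 0.06627, adjusted p = 0.142), and at r = 0.38 without X17SI4 and X10SI4.

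**Figure D3:**
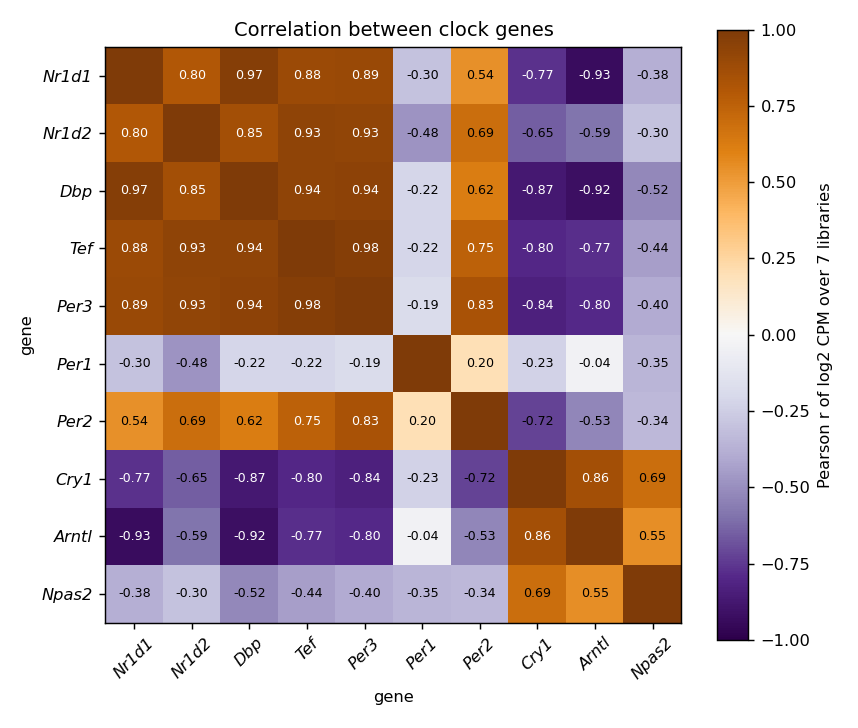
Pearson's r of log2 CPM over the 7 libraries for each pair of clock genes (rows and columns), in numbers and colour. The block of Nr1d1, Nr1d2, Dbp, Tef and Per3 is positive throughout (0.80 to 0.98), Arntl and Cry1 are negative against it, and Per1 lies between -0.48 and 0.20 with every other gene.

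The libraries were then ordered by a single index, the mean log2 CPM of Nr1d1, Nr1d2, Dbp, Tef and Per3 minus that of Arntl and Npas2, each gene centred on its mean over the 7 libraries. It is a description and was not tested. The index was -2.19, 1.33, 1.49 and 0.50 in X17SI4, X32SI4, SI9 and X1SI4 on normal cys, and -1.16, 0.40 and -0.37 in X23SI4, X26SI4 and X10SI4 on low cys. The normal cys libraries therefore held both ends of the order, and the low cys libraries lay between them. The mean index was 0.28 ± 1.71 (SD, n = 4) on normal cys and -0.38 ± 0.78 (SD, n = 3) on low cys, a difference of -0.66 against a pooled SD within diets of 1.41.

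The same order can be read from ratios of CPM. Nr1d1 stood above Arntl by 1.08-, 8.18-, 12.9- and 3.46-fold in the normal cys libraries and by 1.22-, 3.53- and 2.29-fold in the low cys libraries. Dbp over Arntl was 0.0424, 2.33, 3.31 and 0.626 in the normal cys libraries and 0.0905, 0.619 and 0.339 in the low cys libraries. X17SI4 and X23SI4 had the lowest ratios, and X1SI4 and X26SI4, 1 library of each diet, had nearly the same ratio.

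**Figure D4:**
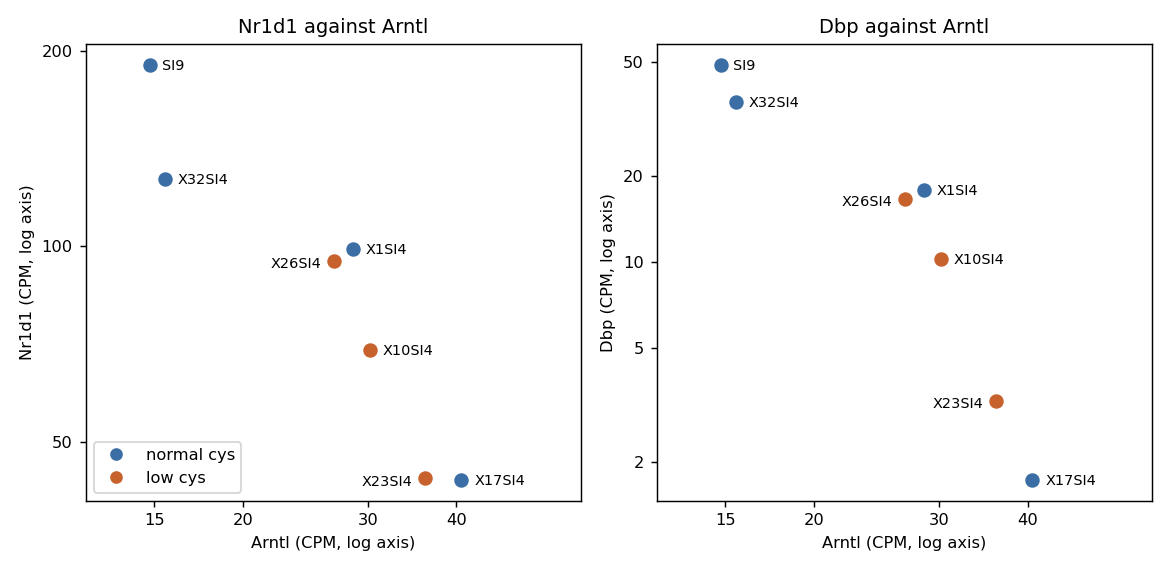
Nr1d1 (left) and Dbp (right) against Arntl, all in CPM on log axes, with 1 point per normal cys (blue) or low cys (orange) library. The points descend from SI9 at 14.8 CPM of Arntl to X17SI4 at 40.6 CPM, with the low cys libraries among the normal cys ones.

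The diet comparison asks whether cystine restriction went with another level of these genes. No difference between diets in any of the 10 genes passed edgeR's quasi-likelihood test over all 14869 genes. That test sets the difference against the spread between mice. At an unadjusted p under 0.05 there were 0 of 10 members against 5.49% of all genes tested, and at an adjusted p under 0.05 there were 0 members and 0.0% of all genes. DESeq2 also gave 0 members at either threshold. The groups overlapped in all 10 members, whereas 6.83% of all genes had groups that did not overlap. The estimate was lower on low cys in 8 of 10 members and in 48.8% of all genes tested, and the median log2 fold change was -0.20 over the members and 0.01 over all genes.

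The lowest estimates were those of the light-phase genes. Dbp was at 26.2 ± 20.7 CPM on normal cys (SD, n = 4) and 10.1 ± 6.68 CPM on low cys (SD, n = 3), with a log2 fold change of -1.40 ± 0.92 (SE, adjusted p = 0.794). Per3 was at 19.2 ± 11.5 and 9.83 ± 2.80 CPM, with a log2 fold change of -0.97 ± 0.63 (SE, adjusted p = 0.794). Nr1d1 was at 115.0 ± 60.9 and 69.4 ± 25.5 CPM, with a log2 fold change of -0.73 ± 0.46 (SE, adjusted p = 0.794). None of the 3 passed the test, and each estimate was less than 2 times its SE. Tef was at 77.3 ± 36.5 and 50.6 ± 17 CPM, a log2 fold change of -0.61 ± 0.46 (SE, adjusted p = 0.798), and Nr1d2 at 64.2 ± 31.4 and 55.8 ± 20.1 CPM, a log2 fold change of -0.21 ± 0.44 (SE, adjusted p = 0.905).

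The estimates of the other 5 members lay between -0.20 and 0.32. Arntl, at 24.9 ± 12.3 CPM on normal cys and 31.1 ± 4.66 CPM on low cys, had a higher estimate on low cys, as had Per1 with a value near 0 (Arntl, log2 fold change 0.32 ± 0.34 SE, adjusted p = 0.829). Npas2 was at 45.2 ± 11.3 and 39.3 ± 4.19 CPM (log2 fold change -0.20 ± 0.20 SE, adjusted p = 0.822), and Per2 at 33.3 ± 10.3 and 30.2 ± 5.74 CPM (log2 fold change -0.14 ± 0.26 SE, adjusted p = 0.895). Neither passed the test. Cry1 was at 16.8 ± 7.70 and 16.8 ± 1.53 CPM, with a log2 fold change of -0.0028 ± 0.30 (SE, adjusted p = 0.999), and Per1 at 15.97 ± 9.87 and 16.01 ± 11.6 CPM, with a log2 fold change of 0.01 ± 0.55 (SE, adjusted p = 0.997). In two-sided exact permutation tests of single genes, which with 4 and 3 libraries cannot give a p below 0.0286, p was between 0.343 and 0.914 for the 10 members.

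These counts depend on X17SI4, the normal cys library at the far end of the order. Without it, 5 of 10 members had an unadjusted p under 0.05, against 11.9% of all genes tested, and 0 members had an adjusted p under 0.05. The 5 were Per3 (log2 fold change -1.33, adjusted p = 0.315), Tef (-0.91, adjusted p = 0.373), Nr1d1 (-1.0002, adjusted p = 0.377), Dbp (-1.79, adjusted p = 0.377) and Arntl (0.66, adjusted p = 0.402). The label of X17SI4 gives no reason to leave it out, so the estimates with all 7 libraries are the ones reported.

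**Figure D5:**
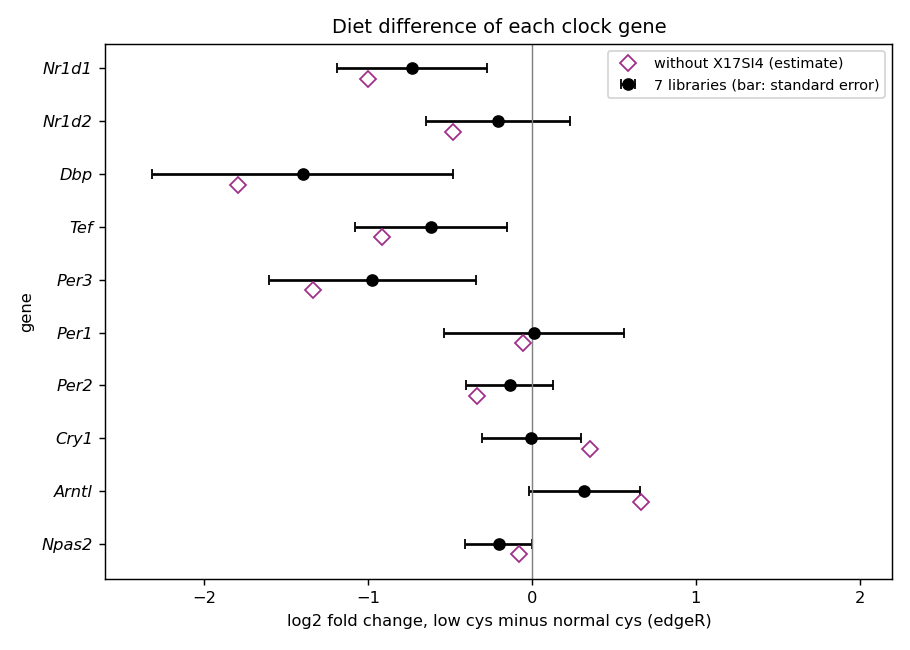
Log2 fold change of each clock gene, low cys minus normal cys, from edgeR over the 7 libraries (black, with the standard error) and the estimate without X17SI4 (open diamonds). Dbp, Per3, Nr1d1 and Tef have the lowest estimates in both, and Arntl and Cry1 move furthest to the right without X17SI4.

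Other components of the clock did not pass the test between diets either. Of 26 such genes (Clock, Cry2, the Ror genes, Nfil3, Hlf, Bhlhe40, kinases, ubiquitin ligases and others), 24 were tested. Among these, 0 had an unadjusted p under 0.05 in edgeR, against 5.49% of all genes tested. Rorb and Bhlhe41 were too low to be tested. Nfil3, the repressor that competes with DBP and TEF for D-boxes, had 30.7, 7.45, 6.31 and 16 CPM on normal cys and 20.1, 15 and 15.98 CPM on low cys. Its highest and lowest libraries were those of Arntl. Hlf, which belongs to the same family as DBP and TEF and was chosen after its values were seen, had 0.418, 2.23, 3.31 and 1.29 CPM on normal cys and 0.816, 0.562 and 0.773 CPM on low cys, and like Dbp it was highest in SI9 and X32SI4.

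Among 29 output genes of the clock, all of them tested, 2 were higher and 1 was lower on low cys at an unadjusted p under 0.05, against 5.49% of all genes tested, and none passed the adjusted test. Slc15a1, the intestinal peptide transporter PEPT1, stood at 495.3, 901.5, 1033 and 729.3 CPM on normal cys and at 334.2, 503.0 and 593.8 CPM on low cys (log2 fold change -0.73 ± 0.28 SE, adjusted p = 0.794). X17SI4 lay among the low cys libraries. Usp54, with 2.16 to 3.20 CPM on normal cys and 3.22 to 4.78 CPM on low cys, had a log2 fold change of 0.64 (adjusted p = 0.794), and Lonrf3, with 1.05 to 1.41 and 1.5 to 2.204 CPM, had one of 0.69 (adjusted p = 0.794). In both genes every low cys library was above every normal cys library, and 6.83% of all genes had groups that did not overlap.

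Dbp was set against the 53 tested genes of these 2 lists. At an unadjusted exact permutation p under 0.05 by Pearson's r there were 9 genes, and 0 had an adjusted p under 0.05 by Pearson's r or by Spearman's rho. The share of all genes tested at that unadjusted p with Dbp was not computed, so the 9 are not read as an excess. The most negative was Nfil3, at r = -0.93 (exact permutation p = 0.005556, adjusted p = 0.147) and rho = -0.89 (exact permutation p = 0.0123, adjusted p = 0.130), with r = -0.95 without X17SI4 and X23SI4. For Slc15a1 r was 0.84 (exact permutation p = 0.02083, adjusted p = 0.180) and rho 0.93 (exact permutation p = 0.006746, adjusted p = 0.119), with r = 0.87 without the same libraries.

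Per1 was also set beside genes induced by glucocorticoids, a comparison chosen after their values were seen. Of 8 such genes 7 were tested, and 0 had an unadjusted p under 0.05 between diets in edgeR, against 5.49% of all genes tested. Tsc22d3, Fkbp5, Sgk1, Klf9 and Cdkn1a are also in the list of output genes, so the 2 lists are not independent. Over the 7 libraries, 2 of the 7 correlated with Per1 at an adjusted p under 0.05 by both Pearson's r and Spearman's rho. Because of the way the comparison was chosen, these p-values are descriptive. The share of all genes that correlate with Per1 to that degree was not computed. For Tsc22d3 (GILZ), with 49.6, 71.1, 44.4 and 43.7 CPM on normal cys and 97.0, 40.7 and 48.7 CPM on low cys, r was 0.94 (exact permutation p = 0.00119, adjusted p = 0.00833) and rho 0.93 (exact permutation p = 0.006746, adjusted p = 0.0236). For Ddit4, an inhibitor of mTORC1 signalling, with 12.9, 13.5, 9.15 and 9.89 CPM on normal cys and 45.1, 8.62 and 12.1 CPM on low cys, r was 0.76 (exact permutation p = 0.00496, adjusted p = 0.0174) and rho 0.96 (exact permutation p = 0.002778, adjusted p = 0.0194). Without X32SI4 and X23SI4, the libraries highest in Per1, r was 0.97 for Tsc22d3 and 0.93 for Ddit4. The other 5 genes did not pass. Fkbp5, a co-chaperone of the glucocorticoid receptor, had r = 0.83 (exact permutation p = 0.02401, adjusted p = 0.0560) and rho = 0.82 (exact permutation p = 0.03413, adjusted p = 0.0796), and r = 0.26 without those libraries, so that its relation rests on them. Sgk1 had r = 0.73 (exact permutation p = 0.0629, adjusted p = 0.110) and rho = 0.68 (exact permutation p = 0.1095, adjusted p = 0.192), and r = 0.51 without them. Klf9, Errfi1 and Cdkn1a had an r of -0.01, -0.24 and -0.27 with Per1 (exact permutation p = 0.9754, 0.5956 and 0.5732) and a rho of -0.18, -0.18 and -0.07 (exact permutation p = 0.7131, 0.7131 and 0.9063), with the lowest adjusted p among these 6 values at 0.695.

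Of 8 immediate early genes, all tested, 1 had an unadjusted p under 0.05, against 5.49% of all genes (Junb, a subunit of AP-1, log2 fold change -0.52 ± 0.20 SE, adjusted p = 0.794).

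The sum of the enterocyte markers followed the order of the libraries in part. The summed level of 10 enterocyte markers was 35640, 38060, 59700 and 60950 CPM in X17SI4, X32SI4, SI9 and X1SI4 and 19440, 36130 and 38250 CPM in X23SI4, X26SI4 and X10SI4. X23SI4, one of the lowest libraries for the light-phase genes, was set apart as the lowest in this sum. X17SI4, the other, came next but lay close to X26SI4, X32SI4 and X10SI4. Abundant markers such as Fabp2 weigh most in the sum, and single markers did not all follow it. X23SI4 was lowest in every marker but Slc10a2, which was lowest in SI9 (183.7 CPM). Krt20 was highest in X17SI4 (3204 CPM). Of these markers 2 of 10, Apoa1 and Krt20, had an unadjusted p under 0.05, both lower on low cys, against 5.49% of all genes, and neither passed the adjusted test (adjusted p = 0.794 for each). Levels in bulk tissue cannot tell apart fewer cells of a type and less RNA per cell.

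The summed markers of stroma, of B and plasma cells and of endothelium were higher in each low cys library than in every normal cys library. Stroma markers summed to 10.3 to 19.6 CPM on normal cys and 21.6 to 29.2 CPM on low cys, with 2 of 6 tested markers, Dcn and Col3a1, higher on low cys at an unadjusted p under 0.05. Smooth muscle markers summed to 2.34 to 12.1 and 5.63 to 38.2 CPM, with 2 of 6 (Des and Actg2) higher, and B and plasma cell markers to 38.8 to 127.4 and 155.5 to 230.0 CPM, with 1 of 5 (Jchain) higher. These counts stand against 5.49% of all genes, and each of the 5 markers had an adjusted p of 0.794. T cell markers summed to 112.8 to 226.0 CPM on normal cys and 84.4 to 131.8 CPM on low cys, and endothelial markers to 1.82 to 5.59 and 6.62 to 7.14 CPM, with no marker past that p in either list. Markers of liver and pancreas summed to at most 0.327 CPM, and 2 of the 5 were at 0 in every library. The part of these cell markers in the differences between libraries was not tested.

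For 3 members the genes with the most similar pattern were searched among 10309 tested genes with a mean of at least 5 CPM, by Pearson's r of log2 CPM over the 7 libraries. The value of r exceeded 0.9 for 92 genes with Arntl, 209 with Nr1d1 and 141 with Dbp. Arntl was most similar to St5 (r = 0.99), Fgfr2, a receptor of fibroblast growth factors (r = 0.99), and Nfil3 (r = 0.99). Nr1d1 was most similar to Ebpl (r = 0.99), Spata13 (r = 0.99) and Shpk, a kinase of sugar metabolism (r = 0.98). Dbp was most similar to 0610005C13Rik, Mrpl27, a protein of the mitochondrial ribosome, and Dcxr, a carbonyl reductase (r = 0.99, 0.99 and 0.98). Nfil3 was thus the only gene of the clock lists among these 9.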

How the data were processed

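Small-intestine libraries of 4 normal cys and 3 low cys mice were used, grouped by their treatment labels. The authors trimmed the reads, removed ribosomal reads, aligned to GRCm38 with STAR and deposited raw counts per gene from featureCounts with the Ensembl annotation. The strand setting is not given in the sources used here. Library sizes were 14888760 to 22412703 counts. Genes were kept by filterByExpr (minimum count 10, minimum total 15), scaled by TMM and tested with edgeR 4.0.16 (robust quasi-likelihood, Benjamini-Hochberg over 14869 genes) in R 4.3.3. The biological coefficient of variation was 25.5%. Log2 CPM used a prior count of 2. Alternatives were DESeq2 1.42.0, limma 3.58.1 (voom with quality weights), other scalings and filters, a non-robust fit and leaving out each library. The edgeR test was tested on simulated data. The edgeR p-values set the difference between diets against the spread between mice. The exact permutation p-values are shares of the possible assignments or orders of the libraries.

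The members and lists were chosen with earlier results of these data known. All members are named, as are genes of the lists of clock components and clock outputs with an unadjusted p under 0.05 (at most 6 a list, smallest p first) and the 3 genes most similar to Arntl, Nr1d1 and Dbp. Genes of the glucocorticoid, immediate early and cell marker lists were named after their values were seen.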

Additional observations from a re-analysis of the deposited data

Results flagged for a closer look

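In 2 of 11 quantities examined in the 4 normal cys libraries (log2 CPM of the 10 members and the index), 1 library lay far from the others. For Tef the distance of the lowest library to the next, divided by the range of the group, was 0.898, and for Per3 it was 0.845, against Dixon's critical value of 0.829 for 4 samples. The library was X17SI4 in both. For Per2, in which X17SI4 was also lowest, the value was 0.808, and for the index it was 0.731, both under the critical value. Chance alone places about 1 in 20 groups above that value, and the members vary together, so that these quantities are not independent.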

How the results depend on the processing

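With 4 and 3 libraries and a within-diet spread of 0.77 (log2) in the median member, only large differences can pass. That spread was 0.38 without X17SI4 and 0.75 to 0.86 without any other library, an alternative chosen after seeing the data. Of 140 estimates of single members under other settings, 119 kept their direction and side of the threshold, 6 passed an unadjusted p of 0.05 and 15 changed sign. The signs that changed were of 4 members. Per1 became -0.0026 without a filter, -0.0049 in DESeq2, -0.0774 in limma-voom and -0.74 to 0.56 when 1 library was left out. Per2 became 0.0225 with plain library sizes, chosen after seeing the data. Cry1 became 0.14 with plain library sizes, 0.0075 with at least 10 counts in every library, 0.15 in limma-voom and -0.16 to 0.35 when 1 library was left out, and Nr1d2 ranged from -0.4851 to 0.0526 when 1 library was left out. Members at an unadjusted p under 0.05 numbered 1 in limma-voom (Arntl, 0.64) and 0 to 5 when 1 library was left out, with 5 without X17SI4. Genes with an adjusted p under 0.05 numbered 16 in DESeq2, 4 in limma-voom and 0 to 1 when 1 library was left out, and no member was among those of DESeq2. Pairs of members with an adjusted p under 0.05 numbered 12, and 0 to 15 when 1 library was left out, with 0 without X17SI4 or without X10SI4 and 2 without SI9. That number was 15 without X1SI4, 9 without X32SI4, 8 without X23SI4 and 8 without X26SI4. Each of these settings has 6 libraries, and so the same number of orders for the exact test, fewer than with all libraries. The cause of the differences between these settings was not tested. The difference of the index was negative under every alternative, from -1.48 without X17SI4 to -0.26 without SI9. No paired analysis was made, because the mice of each diet were separate animals and neither the labels nor the paper pair them.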
